A study of Homo sapiens with 3 samples.

Results

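Cells in S phase are those copying their chromosomes. Among 15560 cells kept from 3 single-cell libraries, 1336 were taken as S-phase cells, 415 in control 1, 472 in control 2 and 449 in the LPS library. They were chosen on measured values: in each library, the 10% of cells with the highest share of their UMIs (unique molecular identifiers, each standing for 1 captured RNA molecule) on PCNA, MCM3, MCM5, MCM7, GINS2, TYMS, CLSPN and DTL together were taken, and cells that were also in the top 10% for TOP2A, MKI67, CENPF, CCNB1, CDC20, PLK1, TPX2 and UBE2C were set aside. The latter list marks G2 and mitosis, and its top 10%, 1556 cells, is called G2/M cells here. The 12668 cells in neither top are called other cells. Cells entered with at least 1500 UMIs, at least 700 genes and at most 20% of UMIs on mitochondrial genes.

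The cultures held Caco-2 (passage 8) and HT29 (passage 13), both human colorectal carcinoma cell lines, seeded together on Transwell membranes with Caco-2 in excess and grown to a differentiated layer. Of the 3 Transwells, 2 were controls and 1 received 1 ng/ml of lipopolysaccharide (LPS) from Escherichia coli O111:B4 in the apical chamber on day 22 for 24 hours, and all were harvested on day 23. The cells were frozen and thawed before capture with a 10x Chromium 3′ kit, and samples under 70% viability went through annexin-bead removal of dead cells. Each library came from 1 Transwell, the LPS group is 1 library, and both lines are cancer lines, so a cycling cell here is not a cycling cell of healthy crypts.

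Before a chromosome can be copied, the origin recognition complex, CDC6 and CDT1 load rings of the MCM helicase onto DNA. In S phase CDC45 and the GINS complex switch the helicase on, PCNA clamps the polymerases to the template, ribonucleotide reductase and thymidylate synthase (TYMS) supply deoxynucleotides, and new histones and DNA methylation marks are laid behind the fork. The transcription factors of the E2F family, held back by the retinoblastoma protein in resting cells, switch on many of these genes at the passage from G1 into S. In the gut, copying belongs to the proliferative part of the crypt, and enterocytes stop cycling as they mature.

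E2F factors are known to bind short sequences near the start sites of replication genes, so promoters of 3 genes of the rule and of 3 genes outside it are shown here. The sequences are from RefSeq (GRCh38.p14), run 5′ to 3′ on the gene's strand and span 100 bases before to 20 after the transcription start. Capitals mark the words TTTCCCGC, TTTGGCGC, TTTCGCGC and TTTGCCGC on either strand. In MCM2, matches on both strands overlap, and E2F1 holds a match on each strand.
PCNA, chr20:5126603-5126722, minus strand: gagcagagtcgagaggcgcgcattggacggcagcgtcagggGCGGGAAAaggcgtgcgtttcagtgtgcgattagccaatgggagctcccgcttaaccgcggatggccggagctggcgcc
CLSPN, chr1:35769959-35770078, minus strand: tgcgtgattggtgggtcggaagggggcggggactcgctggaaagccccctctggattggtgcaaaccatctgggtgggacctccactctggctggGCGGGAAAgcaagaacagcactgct
DTL, chr1:212035648-212035767, plus strand: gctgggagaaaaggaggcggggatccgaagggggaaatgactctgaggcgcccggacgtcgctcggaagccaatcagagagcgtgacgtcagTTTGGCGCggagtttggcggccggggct
MCM2, chr3:127598311-127598430, plus strand: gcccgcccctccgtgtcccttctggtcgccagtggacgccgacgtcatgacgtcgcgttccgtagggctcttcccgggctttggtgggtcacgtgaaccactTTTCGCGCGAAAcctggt
E2F1, chr20:33686366-33686485, minus strand: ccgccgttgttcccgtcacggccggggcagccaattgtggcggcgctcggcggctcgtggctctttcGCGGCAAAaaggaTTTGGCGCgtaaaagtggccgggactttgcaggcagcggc
CDC6, chr17:40287779-40287898, plus strand: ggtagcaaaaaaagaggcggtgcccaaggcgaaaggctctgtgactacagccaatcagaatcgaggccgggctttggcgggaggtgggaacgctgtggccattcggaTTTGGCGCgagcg
In the longer window of 250 bases before to 50 after the start, 7 of the 8 rule genes had a promoter in the reference table and all 7 held at least 1 of the words. None of 6 matched promoters of the G2/M rule genes did, and on a list of G2 and mitosis genes outside that rule 4 of 31 matched genes did (12.9%). Over all 35116 promoters of the table, 3.31% held one, and over 27305 genes with any promoter, 3.99%. Among 10 lists of replication genes outside the rule, described below by role, 45 of 146 matched genes did (30.8%), with 7 of 13 for origin licensing, 5 of 9 for DNA methylation, 2 of 16 for nucleotide supply and 0 of 11 for the checkpoint list. A match is a description of letters in the window and no binding was measured.

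The libraries held 5811, 6495 and 6838 barcodes and 33893707, 27934953 and 24185467 UMIs in control 1, control 2 and LPS, of which 5093, 5307 and 5160 cells were kept, with medians of 5496, 4196 and 3676 UMIs per cell. S-phase cells made up 8.15%, 8.89% and 8.70% of them, shares that the rule largely fixes. With 1 threshold taken from both controls together the shares were 9.17%, 7.90% and 9.30%. Of the cells in the top 10% for the S-phase genes, 18.5%, 11.1% and 13.0% were also in the G2/M top and were counted as G2/M cells. Libraries shared 8, 6 and 5 barcodes in pairs, none with identical counts.

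The threshold cut through a continuous range. The lowest share of UMIs on the rule genes inside the group was 0.0776%, 0.0704% and 0.0788%, and the highest outside it was 0.0773%, 0.0704% and 0.0786%. Within 10% of the threshold lay 181, 159 and 158 cells. The median S-phase cell had 8, 6 and 5 UMIs on the 8 rule genes and 4 of the 8 genes detected in each library, and 58.3%, 64.5% and 66.1% of other cells had none. A ranking after every cell was thinned to 1500 UMIs shared 53.3%, 58.3% and 57.7% of the S-phase cells chosen here. Membership of a single cell was therefore uncertain, and not only near the threshold.

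The label was checked against its markers and against genes the rule did not use. PCNA, the sliding clamp of replication, was detected in 73.0%, 57.6% and 62.1% of S-phase cells, TYMS in 80.7%, 72.0% and 65.7%, and CLSPN, a mediator of the replication checkpoint, in 27.2%, 21.6% and 15.6%. Levels are counts per 1e6 UMIs (CPM) of the sum over a group's cells in a library, in the order control 1, control 2 and LPS. PCNA stood at 196, 184 and 229 CPM in S-phase cells and at 22.5, 21.4 and 23.6 in other cells. MCM5, a helicase subunit, stood at 64.2, 60.0 and 77.8 against 7.70, 6.17 and 6.36 CPM. DTL, the substrate receptor of a ubiquitin ligase that clears CDT1, stood at 31.3, 33.0 and 41.9 CPM in S-phase cells. The 8 genes chose these cells, so their 7.84-fold summed difference is not a result. What the rule left out is described next, and 173 of the 175 genes in the 10 replication lists passed the filter on low counts.

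S-phase cells carried more RNA and more mitochondrial RNA than other cells. Their median UMIs per cell were 6453, 5114 and 4257, between those of other cells (5127, 3935.5 and 3518) and of G2/M cells (8188, 6169 and 4794). At a fixed 1500 UMIs, the median number of genes was 766, 763 and 774 in S-phase cells and 731, 741 and 747 in other cells. Mitochondrial genes took a median of 4.35%, 4.90% and 5.55% of UMIs in S-phase cells and 3.54%, 3.92% and 4.30% in other cells. Of S-phase cells, 6.75%, 7.42% and 4.23% were among the 6% with the highest Scrublet doublet scores of their library, against 5.85%, 5.83% and 6.36% of other cells.

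S-phase cells came mostly from the Caco-2 side of the culture. Each cell was placed by the balance of UMIs on genes of the HT29 and Caco-2 signatures, as Caco-2-like or HT29-like. S-phase cells were 93.5%, 93.9% and 94.9% Caco-2-like, and other cells 76.1%, 67.8% and 74.1%. A gene that differs between the lines can therefore differ between S-phase and other cells as well, so values within Caco-2-like cells alone are given beside the lists and genes whose calls changed most there.

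Genes are called higher or lower in S-phase cells where the adjusted p of edgeR's quasi-likelihood test was under 0.05. Because other genes of the cycle move with the rule genes in the same cells, these calls sort genes for description and are not evidence that S phase differs. Of 12078 genes tested outside the rule, 24.8% were higher and 25.1% were lower, with a median log2 difference of -0.01. Of the 173 replication genes, 154 were higher and 5 lower, with a median of 1.5. In 151 of them every S-phase value lay above every other-cell value, as in 3080 of the 12078 genes (25.5%). Within Caco-2-like cells alone, where 22.3% of 11669 genes were higher and 20% lower, 150 of the 173 were higher and 4 lower, with a median of 1.38. With other cells drawn to the depth of the S-phase cells, the counts were 153 and 5.

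Origin licensing came first in order of function. Of 14 genes 11 were higher, and ORC2, ORC4 and ORC5, subunits of the origin recognition complex, did not pass. MCM2, an MCM ring subunit, stood at 48.4, 45.2 and 57.3 CPM in S-phase cells and at 8.01, 8.52 and 10.6 in other cells, a log2 difference of 2.44. The groups stood well apart in each library. MCM10, a fork protein, stood at 67.1, 68.1 and 64.3 against 7.30, 7.20 and 9.00 CPM, a log2 difference of 3.07. CDC6, the loader of the ring, stood at 39.0, 38.5 and 41.5 against 6.83, 7.25 and 7.62 CPM. ORC4 stood at 31.0, 37.8 and 37.7 against 35.5, 34.4 and 38.7 CPM, with the groups overlapping. The subunits of this complex differed, with ORC1 and ORC6 higher (log2 differences of 2.34 and 1.93), ORC3 higher by less (0.73) and the others not past the test.

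All 14 genes of helicase activation and the fork scaffold were higher, with a median log2 difference of 2.00. CDC45, the partner that activates the helicase, had 16.1, 14.4 and 12.1 CPM in S-phase cells and 2.12, 1.47 and 1.72 in other cells, and it passed the filter through the former. DBF4, the activator of the CDC7 kinase, had the lowest difference, 1.1.

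Of 25 genes of the polymerases, the clamp loader and Okazaki fragment processing, 24 were higher and 1 was lower. FEN1, the flap nuclease, had 75.8, 58.9 and 71.3 CPM against 10.6, 9.85 and 8.94, a log2 difference of 2.76. PCLAF, a PCNA-binding factor, had 242, 234 and 234 CPM against 43.2, 52.3 and 52.1. Among subunits of the clamp loader, the log2 difference ran from 2.07 for RFC3 to 0.33 for RFC1. POLD4, the small accessory subunit of polymerase delta, was the exception at 4.19, 3.70 and 4.66 against 11.2, 11.9 and 10.8 CPM, a log2 difference of -1.48.

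Every one of the 18 genes of nucleotide supply was higher, with a median of 1.11. RRM2, the regulated subunit of ribonucleotide reductase, had 87.7, 83.7 and 87.1 CPM against 11.8, 13.7 and 15.8. DUT, which removes dUTP, had 176, 187 and 175 against 32.9, 40.3 and 40.3. The log2 differences of the list ran from 2.63 for RRM2 to 0.30 for IMPDH2, an enzyme of guanine nucleotide synthesis. Within Caco-2-like cells IMPDH2 did not pass.

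Among 20 genes of cyclins, E2F and G1/S control, 18 were higher and CCND3 was lower, at a log2 difference of -0.55 that was -0.27 within Caco-2-like cells and did not pass there. E2F1, an activating E2F, had 90.6, 61.5 and 62.0 CPM in S-phase cells and 10.4, 9.94 and 10.5 in other cells. CCNE1, cyclin E1, the partner of CDK2 at S-phase entry, had 22.6, 28.5 and 40.1 CPM against 7.15, 9.01 and 10.1. The repressive members E2F7 and E2F8 were higher by 3.04 and 2.78 on the log2 scale. E2F7 had a mean under 10 CPM in S-phase cells, so the filter on low counts may have fixed its direction. RB1, which encodes the retinoblastoma protein, did not pass at 0.21. Of 14 genes of CDK inhibition and arrest, 3 were higher and 7 lower, with a median of -0.23. CDKN1A, which encodes the inhibitor p21, had 21.9, 33.3 and 30.7 CPM against 59.2, 80.1 and 76.9, and its log2 difference of -1.37 was -0.59 within Caco-2-like cells.

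Of 20 genes of histone supply and assembly, 17 were higher and 2 lower. HIST1H4C, a replication-dependent histone H4 gene, had 1532, 1625 and 1413 CPM against 640, 665 and 658. CHAF1A, of the assembly factor that PCNA recruits, had a log2 difference of 2.37. HIST1H2AC and H1F0 were lower, by log2 differences of -1.63 and -0.49. Replication-dependent histone mRNAs mostly lack poly(A) tails and their genes are near-identical copies, so a poly(A)-primed library sees an uncertain part of them. Of 9 genes of DNA methylation and heterochromatin copying, 8 were higher. UHRF1, which brings DNMT1 to newly copied DNA, had 34.5, 34.1 and 34.0 CPM against 4.20, 3.38 and 4.93. SMARCA5 did not pass.

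Cohesion and checkpoint genes were more mixed. Of 12 cohesion genes 7 were higher, led by ESCO2, the cohesin acetyltransferase, at a log2 difference of 2.53, and RAD21, a core subunit, was lower at -0.21 but higher at 0.26 within Caco-2-like cells. Of 13 checkpoint genes 9 were higher: CHEK1, the effector kinase, had 108, 98.9 and 123 CPM against 25.1, 29.7 and 35.3, while ATR, its upstream kinase, had 10.3, 8.15 and 13.5 against 8.56, 7.79 and 8.54 and did not pass. Within Caco-2-like cells 7 of the 13 were higher and RAD17 was lower. All 28 tested genes of DNA repair were higher, with a median of 1.92. EXO1, a mismatch repair nuclease, had 15.2, 10.7 and 8.38 CPM against 1.1, 0.784 and 1.20, the largest log2 difference of the genes named by size, 3.47 with an SE of 0.27. ZNF367, FAM111B, MCM10, WDR76, UHRF1, CDC45, E2F8, E2F1 and FEN1 followed. In other cells EXO1, ZNF367 (1.30, 0.931 and 1.49 CPM) and CDC45 were near the floor. These genes passed the filter on low counts through cells in which they were high. It fixed their direction, so their place in this order is not a result.

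**Figure D1:**
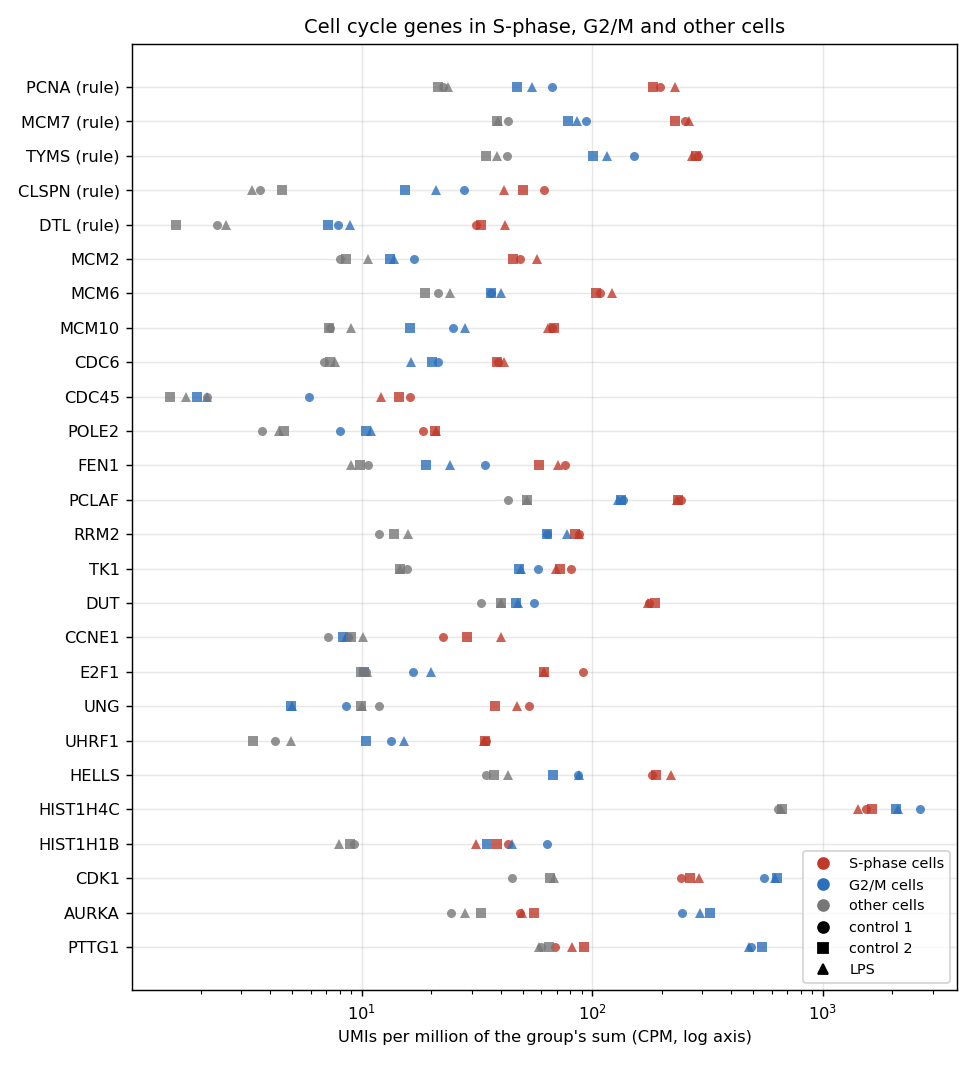
CPM on a log axis of 26 genes in S-phase, G2/M and other cells, 1 point per library, with the 5 uppermost genes part of the rule. PCNA stood at 196, 184 and 229 CPM in S-phase cells and at 22.5, 21.4 and 23.6 in other cells, and PTTG1 was highest in G2/M cells.

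S-phase cells were next set against G2/M cells, which also cycle. Of 12078 genes, 7.24% were higher in S-phase cells and 7.21% lower. Of the 173 replication genes 86 were higher and 18 lower, with a median of 0.37. UNG, which removes uracil from DNA, had the largest difference at 52.9, 37.8 and 47.0 CPM in S-phase cells and 8.51, 4.95 and 4.96 in G2/M cells, a log2 difference of 2.88 with an SE of 0.16. Its level in G2/M cells was below that of other cells, at 11.8, 9.94 and 9.97 CPM. E2F1 at 2.27, WDR76 at 2.11, CDC45 at 2.05, DUT at 1.85, CCNE1 at 1.80 and MCM2 at 1.76 followed, together with C19orf57, RIBC2 and PAQR4. In G2/M cells CDC45 had 5.89, 1.92 and 2.13 CPM, C19orf57 2.62, 2.47 and 2.13 and PAQR4 3.93, 2.47 and 4.96. Those levels alone would not have passed the filter on low counts, so the place of these genes in the order is not a result. CDC45 passed it through S-phase cells, which fixed its direction. By role, 10 of 14 licensing genes, 18 of 25 polymerase and clamp genes and 16 of 28 repair genes were higher than in G2/M cells. Of 12 cohesion genes 1 was higher and 1 lower, and of 13 checkpoint genes 2 were higher and 3 lower. Of 20 genes of histone supply and assembly 6 were higher and 9 lower. The 9 lower were all histone genes and the 6 higher were not. HIST1H4C had 2637, 2076 and 2123 CPM in G2/M cells. The numbers of calls depend on the libraries: 536 genes were higher and 579 lower without control 1, 516 and 538 without control 2, and 587 and 580 without the LPS library.

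Genes of G2 and mitosis were already raised in S-phase cells, most in those with a high G2/M share, as given below. All 36 on the list, none of them part of the rule, were higher than in other cells, with a median of 1.46, and 34 of the 36 were lower than in G2/M cells, with a median of -1.51. CDK1, the mitotic kinase, had 242, 265 and 289 CPM in S-phase cells and 44.7, 65.3 and 68.4 in other cells. AURKA, the centrosomal kinase, had 48.7, 55.9 and 49.4 CPM in S-phase cells and 244, 325 and 294 in G2/M cells. PIF1, a helicase, had the largest difference, with 2.26, 4.81 and 2.79 CPM in S-phase cells and 45.4, 62.9 and 63.1 in G2/M cells, and its level in other cells, 2.16, 3.09 and 3.09, overlapped that of S-phase cells. The other genes furthest below G2/M cells were KIF20A, CENPA, PTTG1, KIF14, PSRC1, BORA, KNSTRN and BUB1. PIF1 was near the floor in S-phase cells, as was PSRC1 at 2.26, 4.81 and 3.26 CPM. Those levels alone would not have passed the filter on low counts, so the place of both genes in the order is not a result.

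**Figure D2:**
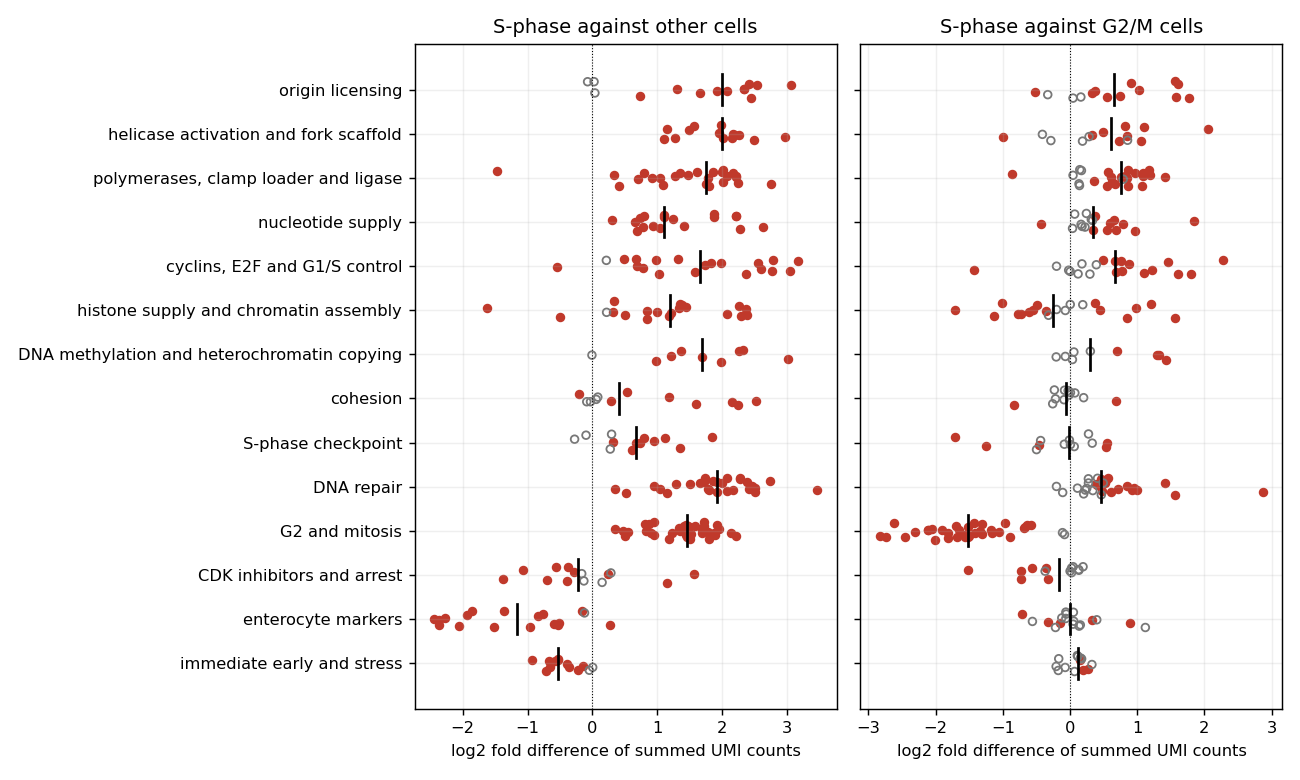
Log2 difference of summed UMI counts for each gene outside the rule, by list, in S-phase against other cells and against G2/M cells, with filled points called, open points not called and black bars at list medians. The G2 and mitosis list has a median of 1.46 against other cells and -1.51 against G2/M cells.

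S-phase cells were not uniform, and they were ordered by their share of UMIs on the 8 G2/M rule genes into 3 equal parts per library, with the cells in both tops as a further set. The order uses genes of the rule, so the values are a description. UNG had 66.1, 60.3 and 53.5 CPM in the lowest part and 35.8, 23.3 and 32.2 in the highest. It was lower in the highest part in every library, as was MCM2, with 57.0, 45.6 and 65.7 against 36.7, 39.8 and 52.8 CPM. The S-phase rule genes are not read here, since their sum chose the cells.

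RRM2 ran in the opposite direction, from 31.9, 25.5 and 38.2 CPM in the lowest part to 145, 130 and 126 in the highest. HIST1H4C ran from 533, 689 and 636 to 2567, 2483 and 2206 CPM. Of the 173 replication genes tested above, 89 were higher in the highest part in all 3 libraries, 10 were lower in all 3, among them UHRF1, CDCA7, MSH6 and CCND1, and 74 were neither. Of all 12078 genes, 20.1% were higher in all 3 and 13.5% lower. The summed level of the 14 licensing genes was nearly even, at 772, 812 and 890 CPM in the lowest part and 896, 870 and 907 in the highest, whereas the histone list went from 1741, 1836 and 1716 to 4602, 4366 and 4011 CPM. The G2 and mitosis list, close in role to the ordering genes, went from 1395, 1341 and 1353 to 4002, 4063 and 3874 CPM. In other cells it summed to 1120, 1202 and 1149 CPM. Median UMIs per cell went with the order, from 5524, 4255.5 and 3756 in the lowest part to 7713.5, 6133 and 4783 in the highest, and the part of depth in these values was not tested.

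**Figure D3:**
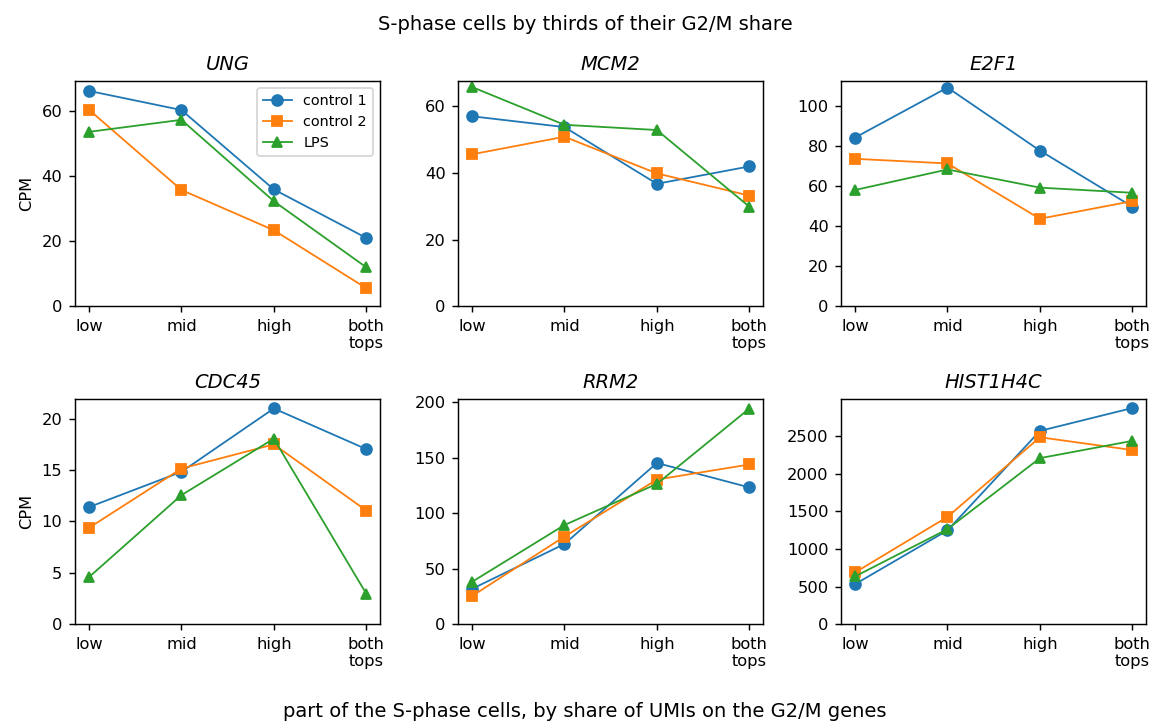
CPM of 6 genes outside the rule in S-phase cells ordered by their G2/M share into 3 equal parts, and in the cells in both tops, with 1 line per library. UNG and MCM2 were lower in the highest part than in the lowest in all 3 libraries, and CDC45, RRM2 and HIST1H4C were higher.

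The share of cells in S phase differed between the lines in every library. Of Caco-2-like cells 9.60%, 11.5% and 10.6% were S-phase cells, and of HT29-like cells 1.85% (15 of 813), 1.12% (13 of 1163) and 1.80% (17 of 947). The exact 95% binomial intervals, which cover counting error only, were 8.71 to 10.5%, 10.5 to 12.6% and 9.67 to 11.6% for Caco-2-like cells and 1.04 to 3.02%, 0.596 to 1.90% and 1.05 to 2.86% for HT29-like cells. The ratio of the shares was 5.20, 10.3 and 5.91, with a mean of 7.14 ± 2.77 (SD, n = 3). G2/M cells showed the same order, with 11.9%, 12.5% and 12% of Caco-2-like and 2.58%, 2.92% and 1.90% of HT29-like cells.

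The order was the same at equal depth. The median UMIs of all Caco-2-like cells were 5435.5, 4245 and 3606 and of HT29-like cells 5652, 3924 and 3822. With each cell thinned to 1500 UMIs, 9.48%, 9.18% and 9.81% of Caco-2-like and 2.46%, 1.46% and 1.69% of HT29-like cells had at least 2 UMIs on the rule genes. The size of the ratio did depend on the rule: it was 3.59 when cells were ranked after thinning, 3.21 with PCNA and the MCM genes alone, 2.65 with the top 20% and 10.8 with the top 5%.

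**Figure D4:**
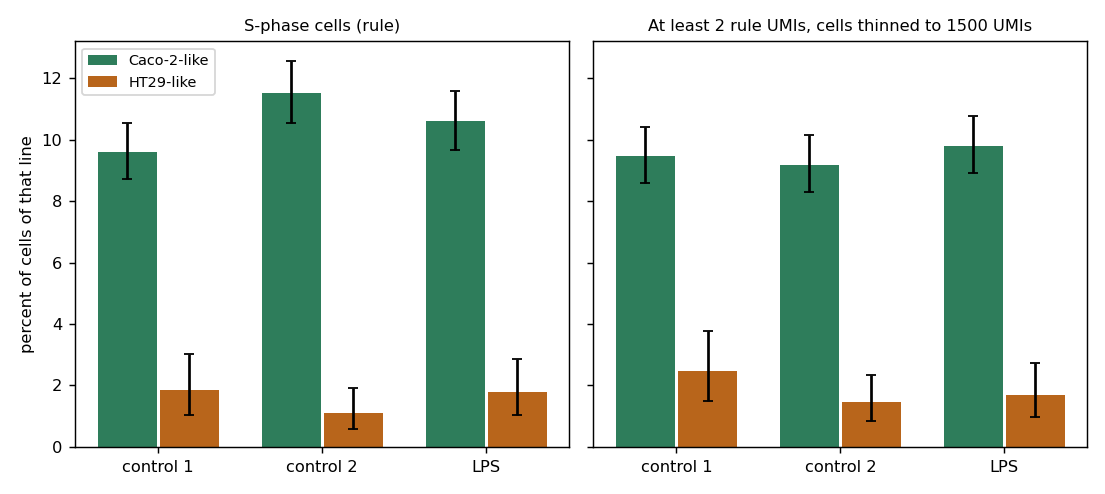
Percent of Caco-2-like and HT29-like cells in S phase by the rule, and percent with at least 2 UMIs on the rule genes after thinning to 1500 UMIs, with exact 95% binomial intervals as bars. HT29-like cells lay at 1.12 to 1.85% by the rule and Caco-2-like cells at 9.60 to 11.5%.

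The 45 HT29-like S-phase cells were few. A single threshold per library chose the S-phase cells of both lines, so the rule also sets part of any difference between the lines in genes that move with it. The 8 rule genes summed to 1175, 968 and 1137 CPM in HT29-like S-phase cells and 103, 80.9 and 89.4 in HT29-like other cells, and to 1197, 1154 and 1239 against 172, 159 and 170 CPM in Caco-2-like cells, a larger ratio in HT29-like cells in each library. The line values below are therefore a description. Genes of the HT29 signature took 5.22%, 5.59% and 4.70% of their UMIs, below the 7.52%, 7.05% and 6.64% of HT29-like other cells, and fetal liver genes, which mark Caco-2 cells, had a summed 4217, 2182 and 2530 CPM against 2222, 1696 and 1693. The part of mixed droplets in these values was not tested. In HT29-like cells 5.77% of 3221 genes were higher in S-phase cells and 3.42% lower, and 39 of the 57 replication genes tested were higher and 0 lower, with a median of 1.41.

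The difference between the lines in the S-phase contrast was past an edgeR adjusted p of 0.05 in 311 of 12413 genes, 2.51%, of which 64 had a higher value in HT29-like cells and 247 a lower one. The median over all genes was -0.23. Since 3221 genes passed the filter on low counts in HT29-like cells alone, most of the 12413 entered with the Caco-2-like cells. HT29-like S-phase sums held 114075, 60964 and 89727 UMIs, and the part of low counts in the lower values was not tested. Without the LPS library the counts were 24 and 93, without control 1 34 and 176, and without control 2 42 and 103. Of the 173 replication genes 9 had a higher and 1 a lower value in HT29-like cells. MCM2 had 87.7, 82.0 and 55.7 CPM in HT29-like S-phase cells, from 10, 5 and 5 UMIs, and 4.04, 4.31 and 5.87 in HT29-like other cells. In Caco-2-like cells it had 47.1, 45.2 and 56.9 CPM against 8.99, 9.68 and 12.2. Its log2 difference was 3.68 in HT29-like and 2.17 in Caco-2-like cells. The lines overlapped in S-phase cells and stood apart in other cells, where HT29-like cells had less MCM2. CDT1, CHEK1, DNMT1, FEN1 and MYBL2 also had the larger difference in HT29-like cells, as had CDC45, E2F1 and MCM4, which were below the filter on low counts in HT29-like cells alone and entered this fit with the Caco-2-like cells. DUT was the reverse, with 61.6, 64.2 and 58.0 CPM in HT29-like and 24.1, 29.4 and 34.5 in Caco-2-like other cells. In simulated data a fold of 2 in such a difference was found for 7.61% of changed genes, and 11.8% of the 17 calls made there were false.

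Most markers of enterocytes were lower in S-phase cells. Of 18 enterocyte markers 16 were lower and only APOA1 higher, with a median of -1.17, and within Caco-2-like cells 17 of 18 were lower and none higher, with a median of -1.48. Within HT29-like cells 7 were tested, of which 1 was higher, APOA1, and 0 were lower. APOA4, an apolipoprotein of fat absorption, had 278, 243 and 273 CPM in S-phase cells and 1622, 1199 and 1380 in other cells. SLC2A5, the fructose transporter, had 17.7, 16.7 and 22.8 CPM against 55.3, 64.8 and 84.6. The structural marker VIL1 moved little, with a log2 difference of -0.16. G2/M cells were alike in this: against them 2 of the 18 markers were higher in S-phase cells and 3 lower, with a median of -0.01.

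Within Caco-2-like cells, the share in S phase was lowest at the high end of enterocyte marker content. In 5 equal parts by that content, from lowest to highest, it was 9.02%, 12.4%, 13.0%, 9.53% and 4.08% in control 1. In control 2 it was 13.3%, 14.7%, 15.0%, 11.4% and 3.25%. In the LPS library it was 12.3%, 14.3%, 14.9%, 7.47% and 3.99%. The highest part stood lowest in every library. After thinning to 1500 UMIs, the percent of cells with at least 2 rule UMIs was 11.9, 10.9, 10.9, 9.41 and 4.33 in control 1, 10.3, 12.9, 11.8, 8.71 and 2.21 in control 2, and 11.8, 12.3, 12.2, 8.09 and 4.61 in the LPS library. The highest part was again the lowest, whereas the rise from the first part to the third was absent in control 1. Median UMIs in the highest part were 5196.5, 3947 and 3488 and in the lowest 5364, 4041 and 3388. In HT29-like cells the highest part stood highest instead, with 4.32%, 3.45% and 3.70% in S phase. Its cells had medians of 10718.5, 6271.5 and 5771 UMIs, and the part of mixed droplets there was not tested.

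**Figure D5:**
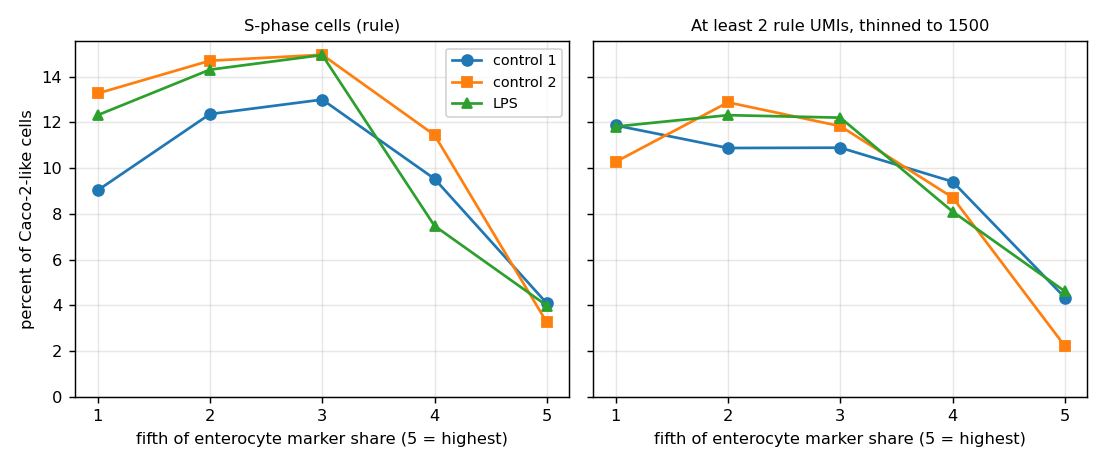
Percent of Caco-2-like cells in S phase by the rule, and percent with at least 2 rule UMIs after thinning, in 5 equal parts by enterocyte marker share, with 1 line per library. The highest part stood at 4.08%, 3.25% and 3.99% by the rule, below the other parts of each library.

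Large decreases by size in S-phase cells were those of SST, NUPR1, KLK10, LAT2, FAM3D, FCGBP, TM4SF4, SPDEF and LINC01133. The HT29 signature was also lower and summed to 10184, 9610 and 9480 CPM in S-phase and 23650, 25383 and 22356 in other cells. Within Caco-2-like cells 7 of these genes were below the filter on low counts, and FCGBP and TM4SF4 did not pass, at log2 differences of -0.50 and -0.55. Within HT29-like cells alone 4 of 7 tested were lower, SPDEF at -2.39, KLK10, FAM3D and TM4SF4. SST, which encodes somatostatin of enteroendocrine cells, had 0, 0 and 1.40 CPM in S-phase cells and 6.36, 9.90 and 58.2 in other cells, and it passed the filter through the latter. KLK10, at 1.29, 1.85 and 1.40 CPM in S-phase cells, LAT2, at 1.29, 0.370 and 2.33, and SPDEF, at 1.29, 1.48 and 2.33, passed it likewise. So did LINC01133, at 0.967, 2.22 and 2.79 CPM. The direction of these differences was fixed by the filter. FAM3D had 6.77, 2.22 and 1.86 CPM in S-phase cells, NUPR1 0.322, 3.70 and 6.99 and FCGBP 2.26, 5.56 and 5.12. Those levels alone would not have passed the filter, so the direction of these decreases is not a result either. Of 9 goblet markers tested, 8 were lower and AGR2 higher, but within Caco-2-like cells 1 of 6 was lower, ZG16, and within HT29-like cells 1 of 7, SPDEF. The list's summed level, most of it TFF3 and AGR2, was 2524, 2243 and 2038 CPM in S-phase cells and 2359, 2364 and 2142 in other cells, with the groups overlapping.

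On a list of DKK1 and targets of the hippo pathway effector YAP, 4 of 5 genes tested were higher in S-phase cells. The same held within Caco-2-like cells. AMOTL2 did not pass, at a log2 difference of 0.12 and, within Caco-2-like cells, -0.05. ANKRD1, a YAP target, had 127, 118 and 116 CPM in S-phase cells and 24.3, 44.1 and 34.1 in other cells, a log2 difference of 1.83 that was 1.49 within Caco-2-like cells. The Caco-2-like cells with the top 10% of UMIs on this list were in S phase in 15.6%, 16.1% and 16.9% of cases, against 8.93%, 11% and 9.90% of the rest.

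Immediate early and stress genes were lower, 11 of 13, with a median of -0.53, and within Caco-2-like cells 12 of 13 were lower, with a median of -0.30. ZFP36, which destabilises inflammatory mRNAs, had 45.8, 44.8 and 45.2 CPM against 92.7, 80.1 and 79.5, and JUN had 193, 164 and 160 against 266, 257 and 231. Of 13 intestinal stem markers 6 were higher and 4 lower. Within Caco-2-like cells 3 were higher, PROX1 was lower and 9 did not pass, among them CD44, at -2.28 overall and 0.05 there. Of 12 p53 targets 3 were higher and 5 lower, and within Caco-2-like cells 2 and 3 of 11. Of 10 NF-kB targets 4 were lower, with a median of -0.38, and within Caco-2-like cells 3 of 8, with a median of -0.11. Of 14 fetal liver genes 6 were higher and 2 lower, while within Caco-2-like cells 2 were higher and 7 lower. Of 3 immune and stromal markers above the filter, 1 was lower, CD68.

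LPS against control was tested within S-phase cells, a comparison the rule did not use because it ranks cells inside each library. The LPS group is 1 library, taken to vary as the controls do, with 1 residual degree of freedom, so its effect and that of its Transwell cannot be told apart. Of 11671 genes tested by edgeR, 5 were higher (0.0428%) and 7 lower (0.0600%) at an adjusted p under 0.05, and 646 were under 0.05 unadjusted. DESeq2 called 0, with 35 under 0.05 unadjusted. None of the 173 replication genes was called, and their median log2 difference was -0.03 against 0.00 over all genes. CCNE1, for example, had 22.6 and 28.5 CPM in the controls and 40.1 with LPS, a log2 difference of 0.59 with an SE of 0.25 (edgeR adjusted p = 0.828). In simulated data a fold of 2 was found for 38.8% of changed genes, so most changes of that size would be missed.

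ALB, which encodes albumin, was lower with LPS, at 395 and 428 CPM in the S-phase cells of the controls and 225 in those of the LPS library, a log2 difference of -0.93 with an SE of 0.17 (edgeR adjusted p = 0.00129). In other cells it stood at 248, 246 and 300 CPM. It was also uneven among the S-phase cells of a library: in the parts ordered by G2/M share it had 214 CPM in the lowest and 782 in the highest part of control 1, and 710 and 210 in those of control 2. IFIT1, an interferon-induced gene, had 1.61 and 1.48 CPM in the controls and 11.6 with LPS, a log2 difference of 2.81 with an SE of 0.66 (edgeR adjusted p = 0.0376). In S-phase cells IFIT1 was near the floor in the controls and passed the filter on low counts through the LPS library, which fixed its direction there. It was also higher in other cells, at 5.93, 9.70 and 24.2 CPM (edgeR adjusted p = 3.62e-05).

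PLA2G2A, a secreted phospholipase, had 68.0 and 65.9 CPM in the controls and 120 with LPS. CD24, a surface glycoprotein, had 28.7 and 39.6 and then 66.6 CPM. LCN15 and AL450992.1 were the other higher genes. AL450992.1, at 1.61 and 1.48 and then 14.9 CPM, also passed the filter through the LPS library, which fixed its direction. The lower genes besides ALB were SLPI, a secreted protease inhibitor, at 25.2 and 20 and then 7.45 CPM, WFDC2, TFF2, FGG and APOA1. FGG, a fibrinogen chain, was also lower in other cells, at 89.7 and 81.1 and then 53.3 CPM (edgeR adjusted p = 0.0393). In TFF2, with 266, 109 and 95 CPM, in APOA1, with 6967, 5016 and 3973, and in WFDC2, with 57.4, 85.2 and 36.8, the controls differed from each other by more CPM than the nearer control did from LPS. The seventh lower gene, FABP7, had 0, 15.9 and 0 CPM and rests on control 2.

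The LPS difference in S-phase cells was set against that in other cells by an interaction term, and 6 of 14964 genes (0.0401%) passed in edgeR. DESeq2, tried for this term after the data were seen, called ALB alone of these, and CD24 and PRSS2 did not pass with other size factors. The term rests on the 1 LPS library, so a difference of that library's Transwell cannot be told apart from LPS. With 1 residual degree of freedom, its p-values rest largely on spread pooled over genes. ALB had an interaction of -1.14 on the log2 scale (edgeR adjusted p = 1.71e-18) and PLA2G2A one of 0.86 (edgeR adjusted p = 0.00133). AL450992.1, CD24, PRSS2, a trypsinogen, and RBP2, a retinol-binding protein of enterocytes, were the others. For IFIT1 the interaction was 1.24 and did not pass, so its rise was not shown to differ between S-phase and other cells. None of the 6 belonged to the replication lists.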

How the data were processed

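The authors counted UMIs per gene and barcode with Cell Ranger against GRCh38, and deposited 1 filtered table of raw counts per library, with no normalization. The file headers name software version 3.1.0, which is not the Cell Ranger version in the study's software list. The members and gene lists were chosen with earlier results of these data known. Counts were summed per library and cell group and tested in edgeR 4.0.16 (R 4.3.3; filterByExpr, TMM, quasi-likelihood, Benjamini-Hochberg over all genes tested) with library as a block; DESeq2 1.42.0 was an alternative. The 16 rule genes stayed in the fits and out of every count. Since 1 Transwell gave each library, p-values of the fits with a block measure how the difference between cell groups varied between these libraries. The fit of LPS against control had no block. It and the LPS interaction had 1 residual degree of freedom, so their p-values rest largely on spread pooled over genes. The tests were tried on simulated data.

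Cells were Caco-2-like where the log2 ratio of their UMI shares on the HT29 list (149 genes) over the Caco-2 list (680 genes), each with 0.05 added, was below -3.25, HT29-like above -2.25 and otherwise unclear, limits set after the 2 peaks were seen. The signatures came from public bulk RNA-seq of the lines, but both lists were narrowed with the study's cluster markers, which were found on these samples, so the lists are not independent evidence of line. Scrublet, run in scanpy 1.11.5, marked only 3, 1 and 1 cells as doublets and so did not work; leaving out the 6% of cells with the highest scores was an alternative, as were other shares, rule genes, filters, scalings and thinned counts, and control 1 at minimums of 2250 UMIs and 770 genes. Genes named by size were the 10 largest log2 differences in each direction among calls with the same sign in every library (for LPS, against each control) and a mean of at least 10 CPM in the higher group. Precision depends on UMI depth as well as on the spread between libraries, and the part of each was not tested. Binomial intervals were exact (Clopper-Pearson). Promoters were matched by symbol. Some genes that met these rules are not reported here.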

Additional observations from a re-analysis of the deposited data

Results flagged for a closer look

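The S-phase contrast differed between the lines, by edgeR's interaction term, in 311 genes. The rule that chose the cells sets part of this: its 8 genes summed to 1175, 968 and 1137 CPM in HT29-like S-phase cells against 103, 80.9 and 89.4 in HT29-like other cells, and to 1197, 1154 and 1239 against 172, 159 and 170 in Caco-2-like cells. The values that follow are read against that larger ratio in HT29-like cells, as a description. Among the replication genes, the log2 difference in HT29-like cells exceeded that in Caco-2-like cells by 2.16 for CDC45, 2.07 for MCM4, 1.55 for FEN1, 1.51 for both CDT1 and MCM2, 1.46 for CHEK1, 1.43 for E2F1, 1.17 for MYBL2 and 1.12 for DNMT1, and it was -0.66 for DUT. CDC45, MCM4 and E2F1 were below the filter on low counts in HT29-like cells alone and entered with the Caco-2-like cells, with 6, 5 and 3 UMIs of CDC45 and 12, 3 and 14 of MCM4 in HT29-like S-phase cells. All these values rest on 45 such cells, and the part that mixed droplets have in them was not tested. Most genes of this fit were below the filter on low counts in HT29-like cells alone. The part of low counts in the 311 calls was not tested.

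An edgeR interaction term for LPS between S-phase and other cells passed for 6 genes: AL450992.1 at 3.43, PRSS2 at 1.40, PLA2G2A at 0.86, CD24 at 0.81, RBP2 at 0.69 and ALB at -1.14, all on the log2 scale. With 1 LPS library, the term cannot tell LPS apart from that library. DESeq2, added after the data were seen, called only ALB of the 6, at -1.13 (DESeq2 adjusted p = 9.63e-05). ALB was also uneven among the S-phase cells of the controls, at 214 CPM in the part with the lowest G2/M share and 782 in the highest in control 1, and 710 and 210 in control 2. PRSS2 and RBP2 did not pass in S-phase cells alone, at 0.63 and -0.27 (edgeR adjusted p = 0.881 and 0.914).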

How the results depend on the processing

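All genes named by size in the comparisons with other and with G2/M cells kept their direction under each alternative in which they could be fitted. Against other cells, HT29-like cells alone gave 186 higher and 110 lower calls, and leaving out 1 library gave 2433 to 2555 and 2462 to 2704. Against G2/M cells, calls higher and lower were 216 and 302 without the library block and 503 and 543 with DESeq2, 470 were higher with the top 20%, and leaving out 1 library gave 516 to 587 and 538 to 580. Over all genes, calls that turned to the opposite direction numbered 70 in Caco-2-like and 6 in HT29-like cells alone and 1 with the top 20% against other cells, and 11 with the top 20% and 6 on thinned counts against G2/M cells. On the lists these were AHSG (0.12, then -0.17) and RAD21 (-0.21, then 0.26) in Caco-2-like cells alone, TTR (-0.33, then 1.12) and VTN (-0.31, then 0.79) in HT29-like cells alone, and HIST1H1C (0.32, then -0.26) with the top 20%; the cause was not tested. For the difference between lines, leaving out 1 library gave 24 to 42 higher and 93 to 176 lower calls, fewest without the LPS library. For LPS, no filter on low counts gave 3 higher and 12 lower, and DESeq2 0 and 0. With 1 control left out, LPS would be 1 library against 1 with no residual degrees of freedom, and no test was run. For the LPS interaction, alternatives added after the data were seen gave 4 higher and 1 lower with RLE size factors, where CD24 and PRSS2 no longer passed and APOA2 did, 4 and 1 with no filter on low counts, without CD24, and 0 higher and 1 lower with DESeq2, and leaving out a control would again leave no residual degrees of freedom. The mean ratio of the S-phase share of Caco-2-like over HT29-like cells was 10.8 with the top 5%, 2.65 with the top 20%, 3.59 on thinned counts and 3.21 with PCNA and the MCM genes alone, and 5.56 to 8.11 with 1 library left out. A single threshold from both controls put 9.17% of control 1 and 7.90% of control 2 in S phase. LPS and control libraries could not be paired, since the labels give no pairs of Transwells.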

Other observations

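Of 6 placental genes tested, PAGE4 and GATA2 were higher in S-phase than in other cells and none was lower, while within Caco-2-like cells ALPG was also lower. PAGE4 had 11.6, 78.1 and 20.5 CPM in S-phase cells and 10.7, 18.4 and 10.8 in other cells of control 1, control 2 and LPS, so the S-phase cells of control 2 stood far above those of the other libraries. GATA3 had 13.2, 45.9 and 18.6 CPM in S-phase cells and 20.2, 23.5 and 21.1 in other cells, again highest in control 2, and did not pass the edgeR test. Of 11 enteroendocrine markers, SST and INSM1 were above the filter on low counts, which they passed through the other cells, so the direction of their difference was fixed by it. INSM1 had 1.29, 0.741 and 0 CPM against 6.56, 6.81 and 2.23.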
